A study of Danio rerio with 12 samples.

Results

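The venous chamber and the ventricle of adult *nr2f1a* aco mutant zebrafish were compared with each other across all measured genes. The mutant sinus venosus (SV) gave 2 RNA-seq libraries and the mutant ventricle (V) gave 2, so that 4 of the series' 12 libraries carry the comparison. They were chosen by tissue and genotype label, with earlier results of these data known. The aco allele came from a mutagenesis screen. It is a deletion with a shorter insertion in the leader before the coding part of *nr2f1a*, a nuclear receptor gene. Homozygous fish are viable, effectively lack atria, have an enlarged ventricle and carry a large collagenous venous structure that was dissected as the SV. WT fish, labelled with the same AB/TU background, supplied the SV and V libraries used below for reference, 2 of each, as well as 2 BA and 2 atrial libraries that entered the fit only. The study's methods instead give a mixed AB/TL background for WT fish. Each library pooled the tissue of 20 adult fish aged 6 months to 1.5 years. The title and genotype label of the mutant libraries say aco, whereas their source and tissue labels say WT, and they were used here as mutant. *nr2f1a* cannot check this, because the allele is still transcribed, and nothing says whether libraries with the same number came from the same fish.

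In teleosts the SV is the vein-like chamber that collects blood returning to the heart, and it opens into the atrium. It is built of connective tissue, smooth muscle and endothelium, whereas the ventricle is built mainly of striated cardiac muscle lined by endocardium. Cardiac muscle contracts through sarcomeres, is triggered by calcium released from the sarcoplasmic reticulum, and depends on mitochondria for its energy. Smooth muscle contracts through another actin and myosin set that is switched on by myosin light chain kinase. The comparison therefore sets a vessel wall beside a heart muscle chamber in mutant fish.

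Values are given as CPM, that is read counts scaled to a common library size by TMM, always in the order library 1 and library 2. Log2 fold changes are SV over V, so that positive values are higher in the SV. They come from a fit with 1 RUVs factor, a term for unwanted variation estimated from the differences between replicates. They can therefore differ from the ratio of the CPM values given beside them. For *nppb*, for instance, the value given below moved to -4.19 in a fit of the mutant libraries alone without the factor. Genes are termed called at a Benjamini-Hochberg (BH) adjusted p below 0.05 in the edgeR quasi-likelihood fit over all 12 libraries. The mutant libraries held between 28325098 and 47245524 counts, and 1 count was worth between 0.0229 and 0.0274 CPM. Replicates correlated across genes with r = 0.916 for the SV and r = 0.949 for the V, as log2 CPM, and differed by more than counting noise. With 2 libraries against 2, an exact permutation test of a single value cannot give a two-sided p below 0.333, so the tests rest on the spread shared across genes and libraries. The ventricular marker *vmhc* was high in both V libraries and low in both SV libraries, as their tissue labels give. These are bulk libraries, in which fewer cells of a type and less RNA per cell cannot be told apart. A gene with fewer than 4 counts in total in the lower group gets a bound or a counting interval in place of its fitted fold. These limits cover counting error only.

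The mutant SV and the mutant V differed in 4018 of 19145 genes tested, 21.0% of them, and 6265 genes had an unadjusted p below 0.05. Of the called genes, 1888 were higher in the SV, 9.86% of all tested, and 2130 were lower in the SV, 11.1% of all tested. The median log2 fold change of the called genes was 2.94 in the upward and -2.47 in the downward direction, whereas the median over all genes was 0.03. Changes of large size were common in both directions. A log2 fold change over 4 was found for 620 genes called higher, and one under -4 for 506 genes called lower. The 2 SV libraries did not overlap the 2 V libraries for 3979 of the called genes and for 10844 of all tested genes, or 56.6%. When libraries were scaled by their totals without TMM, the median of all genes shifted by 0.53 on the log2 scale and the split became 3320 higher against 1428 lower, so the balance of the directions depends on the scaling. Without V library 1 only 1005 genes were called higher in the SV.

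**Figure D1:**
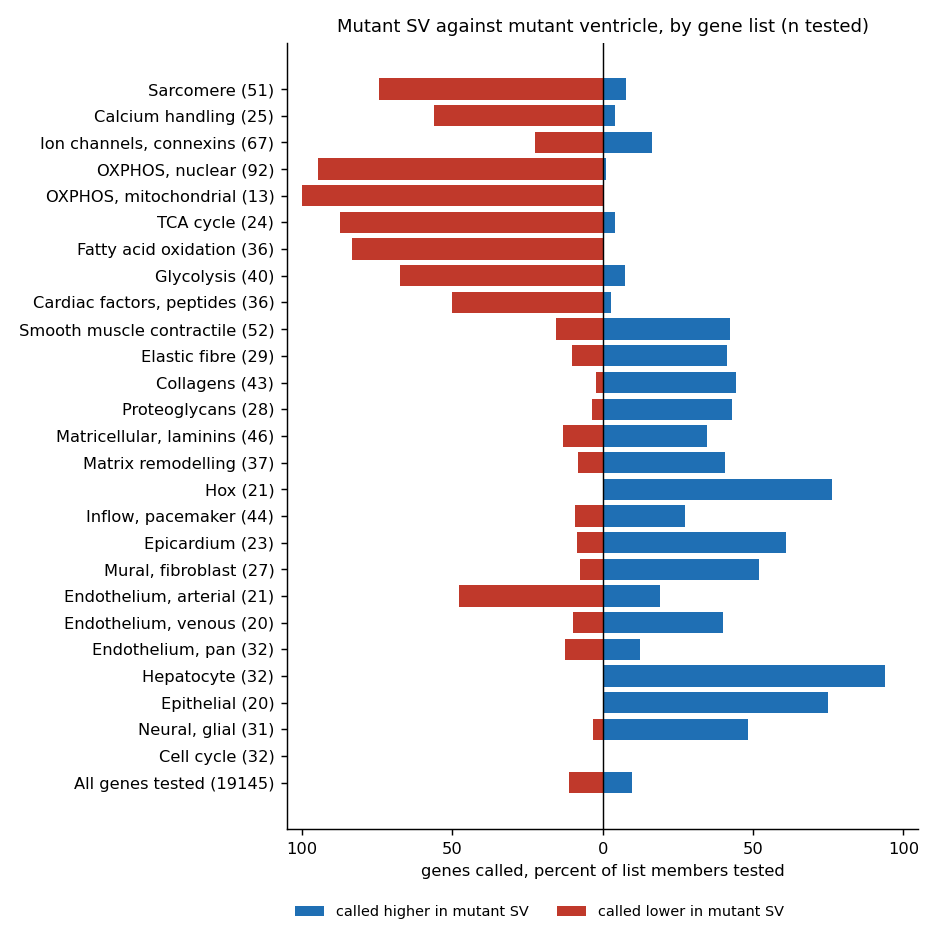
Percent of the tested members of 26 gene lists that were called higher in the mutant SV (to the right) or lower in the mutant SV (to the left), beside all 19145 genes tested. Lists of heart muscle and energy metabolism extend to the left, where 38 of 51 sarcomere genes and all 13 mitochondrially encoded genes stand, and lists of vessel wall, Hox and liver genes extend to the right, where 30 of 32 hepatocyte genes stand.

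The contractile genes of heart muscle were far lower in the mutant SV. Of 51 tested members of a list of sarcomere genes, 38 were called lower, 4 were called higher and 9 were not called, with a median log2 fold change of -5.56. The called members that were lower ranged from -7.9 to -3.74. The ventricular myosin heavy chain gene *vmhc* was measured at 9.82 and 2.77 CPM in the SV libraries and 1382 and 765 CPM in the V libraries. Both V libraries lay far above both SV libraries, and SV library 1 stood above SV library 2. The log2 fold change of *vmhc* was -7.9 (SE 0.94, edgeR BH-adjusted p = 0.000278). Its close relative *vmhcl* was the more abundant of the pair, at 73.2 and 37.5 FPKM in the SV libraries and 3139.9 and 8953 FPKM in the V libraries. Fragments per kilobase, scaled to library depth (FPKM), allow levels of genes of different length to be compared, and on this scale *vmhc* stood at 1.77 and 0.461 FPKM in the SV libraries and 233 and 119 FPKM in the V libraries. The genes are similar in sequence and only uniquely mapped reads were counted, so the split between them is uncertain.

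Thick and thin filament genes of the myocardium followed *vmhc*. The regulatory light chain gene *myl7*, a marker of all cardiomyocytes, was measured at 424 and 96.9 CPM in the SV libraries and 8849 and 26011 CPM in the V libraries. Its log2 fold change was -6.56 (SE 1.09, edgeR BH-adjusted p = 0.00157), and in this gene too the V pair lay wholly above the SV pair. The members with the smallest p values were *obscnb*, which encodes a giant protein that ties the sarcomere to the sarcoplasmic reticulum, *tpm4a*, a tropomyosin gene, and *tmod1*, which encodes a protein that caps thin filaments. *obscnb* was measured at 0.801 and 0.144 CPM in the SV libraries and 30.5 and 36.4 CPM in the V libraries, with a log2 fold change of -6.79 (edgeR BH-adjusted p = 9.06e-05). *tpm4a* remained easily detected in the SV, at 688 and 803 CPM against 7954 and 13009.7 CPM in the V, and its log2 fold change was -3.74 (edgeR BH-adjusted p = 0.000121). *tmod1* had 0.939 and 1.71 CPM in the SV and 18.4 and 17.8 CPM in the V and a log2 fold change of -3.76 (edgeR BH-adjusted p = 0.000133). The titin genes *ttn.1* and *ttn.2*, the myosin binding protein gene *mybpc3*, the troponin genes *tnnt2a*, *tnni1b* and *tnnc1a* and the actin gene *actc1a* were all called lower. The 4 exceptions that were called higher in the SV were *tpm1*, *tmod4*, *obscna* and *actc1b*, and *tpm1*, a tropomyosin gene, was the most abundant of them in CPM, with 99.7 and 255 CPM in the SV and 9.07 and 7.24 CPM in the V.

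The atrial myosin heavy chain gene *myh6*, known in zebrafish as *amhc*, was low in both tissues of the mutant. It was measured at 39.7 and 5.51 CPM in the SV libraries and 14.7 and 6.74 CPM in the V libraries. The groups overlapped, since SV library 2 lay below both V libraries, and the log2 fold change of 0.16 (edgeR BH-adjusted p = 0.821) did not pass the test. In the WT libraries *myh6* stood at 304 and 202 CPM in the SV and 23.2 and 121 CPM in the V, and the difference between the genotypes' contrasts did not pass the test (edgeR BH-adjusted p = 0.331). Summed over the whole sarcomere list, the level was 3819 and 2053 CPM in the SV libraries and 67437 and 192196 CPM in the V libraries. The V libraries thus differed widely from each other, with V library 2 the higher, although both lay above both SV libraries. As a share of all counts the list took 0.589% and 0.274% in the SV and 8.0% and 14.8% in the V.

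**Figure D2:**
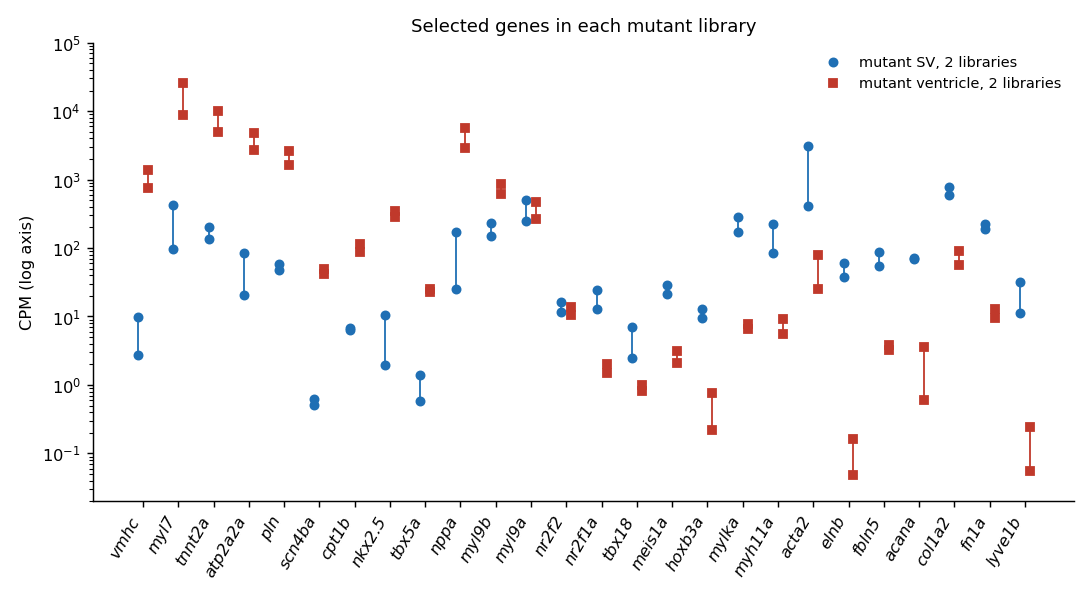
Level of 26 selected genes in each of the 4 mutant libraries, as CPM on a log axis, with each point 1 library and colours for SV and V. Genes of the myocardium such as *vmhc*, *myl7* and *pln* stand higher in the V libraries. Genes of the vessel wall such as *mylka*, *elnb* and *col1a2* stand higher in the SV libraries, and *myl9a* and *nr2f2* overlap.

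Calcium handling genes of heart muscle that were called were lower in the SV with 1 exception. Of 25 tested members of this list, 14 were called lower, 1 was called higher and 10 were not called, with a median of -2.57. The calcium pump gene *atp2a2a*, which refills the sarcoplasmic reticulum, was measured at 85.5 and 20.3 CPM in the SV libraries and 2715 and 4841 CPM in the V libraries. The gene of its inhibitor phospholamban, *pln*, stood at 58.6 and 47.6 CPM in the SV libraries and 1619 and 2615 CPM in the V libraries. For both genes all V values exceeded all SV values, and the log2 fold changes were -6.73 (edgeR BH-adjusted p = 0.00035) for *atp2a2a* and -5.32 (edgeR BH-adjusted p = 0.000404) for *pln*. The smallest p values of the list belonged to the L-type calcium channel gene *cacna1c*, the T-type channel gene *cacna1g* and the calmodulin kinase gene *camk2d2*. All 3 were several times higher in both V libraries. *cacna1c* had 9.85 and 18.2 CPM in the SV and 128 and 144 CPM in the V, with a log2 fold change of -3.25 (edgeR BH-adjusted p = 0.000121). *cacna1g* had 1.74 and 2.0 CPM in the SV and 27.1 and 63.3 CPM in the V, with a log2 fold change of -4.45 (edgeR BH-adjusted p = 0.000131). Replicates of each tissue were closer to each other than to the other tissue. In *camk2d2*, at 5.75 and 3.35 CPM in the SV and 98.4 and 186 CPM in the V, the log2 fold change was -5.04 (edgeR BH-adjusted p = 0.000196). The exception in the other direction was *atp2b1a*, which encodes a calcium pump of the plasma membrane, at 23.7 and 41.9 CPM in the SV and 6.67 and 7.46 CPM in the V, and it was not called without SV library 2, V library 1 or V library 2.

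Ion channel and connexin genes split between the tissues. Of 67 tested members, 15 were called lower in the SV, 11 were called higher and 41 were not called, and the median of -0.13 lay close to that of all genes, and became 0.34 when libraries were scaled by their totals. The sodium channel genes *scn12ab* and *scn4ba* and the potassium channel gene *kcnq1* had the smallest p values, all on the V side. *scn12ab* was measured at 0.183 and 0.120 CPM in the SV libraries and 11.5 and 11.8 CPM in the V libraries. *scn4ba*, the gene of an auxiliary subunit, stood at 0.618 and 0.506 CPM in the SV libraries and 42.3 and 48.6 CPM in the V libraries. *kcnq1*, the gene of a repolarising channel, stood at 0.183 and 0.120 CPM in the SV libraries and 13.5 and 19.5 CPM in the V libraries. Each of the 3 stood below 1 CPM in both SV libraries. Their log2 fold changes were -6.37 (edgeR BH-adjusted p = 5.67e-05), -6.39 (edgeR BH-adjusted p = 6.99e-05) and -6.79 (edgeR BH-adjusted p = 8.5e-05) in that order. The gap junction gene *gja5a* showed an even larger difference, with 0 and 0.169 CPM in the SV and 27.7 and 41.3 CPM in the V and a log2 fold change of -8.74 (edgeR BH-adjusted p = 9.06e-05). On the SV side stood *cx43*, the gene of the connexin that is common in smooth muscle and fibroblasts, at 58.8 and 115 CPM in the SV and 27.7 and 16.4 CPM in the V, together with the sodium channel gene *scn8aa* and the potassium channel genes *kcnk5b* and *kcnn4*. The count of 11 genes called higher in the SV dropped to 6 without SV library 2 or without V library 2 and to 4 without V library 1.

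Genes of mitochondrial energy supply were lower in the SV almost without exception in the lists examined. Among the nuclear genes of the respiratory chain, 87 of 92 tested were called lower in the SV, 1 was called higher and 4 were not called, with a median of -2.55. All 13 mitochondrially encoded genes were called lower, with log2 fold changes between -2.96 and -2.24. *cox7a1*, the gene of the heart and muscle form of a cytochrome oxidase subunit, was measured at 46.5 and 24.8 CPM in the SV libraries and 451 and 1201 CPM in the V libraries. Both V libraries lay above both SV libraries, and the log2 fold change was -4.59 (edgeR BH-adjusted p = 0.000253). The complex I genes *ndufv1* and *ndufs8a* were lower by similar amounts, at -3.06 (edgeR BH-adjusted p = 0.000175) and -3.04 (edgeR BH-adjusted p = 0.00026). The single exception was *cox4i2*, which encodes an alternative cytochrome oxidase subunit linked to low oxygen in mammals. It had 16.9 and 32.5 CPM in the SV and 8.86 and 16.9 CPM in the V, with a log2 fold change of 1.06 (edgeR BH-adjusted p = 0.03). SV library 1 and V library 2 thus stood at about the same level. No gene of this list was called higher without the RUVs factor or in a fit of the mutant libraries alone. The mitochondrially encoded *ND1* stood at 586 and 846 CPM in the SV libraries and 4138 and 6771 CPM in the V libraries. *ND4L* stood at 30.5 and 43.0 CPM in the SV libraries and 163 and 365 CPM in the V libraries. *ND6* stood at 22.9 and 19 CPM in the SV libraries and 168 and 83.9 CPM in the V libraries. The V libraries were higher in all 3 of these complex I genes, and their log2 fold changes were -2.84 (edgeR BH-adjusted p = 0.000815), -2.67 (edgeR BH-adjusted p = 0.000896) and -2.63 (edgeR BH-adjusted p = 0.000911) in that order. Together the 13 genes made up 3.44% and 4.63% of the counts of the SV libraries and 14.9% and 17.3% of those of the V libraries.

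Fuel pathways moved in the same direction. Of 24 tested genes of the tricarboxylic acid cycle, 21 were called lower in the SV and 1, *ogdhb*, was called higher, with a list median of -2.85. The citrate synthase gene *cs* had 56.7 and 49.0 CPM in the SV and 539 and 632 CPM in the V (log2 fold change -3.51, edgeR BH-adjusted p = 0.000121). The cytosolic malate dehydrogenase gene *mdh1ab* was far lower in the SV, with 3.5 and 2.29 CPM in the SV and 144 and 295 CPM in the V (log2 fold change -6.26, edgeR BH-adjusted p = 0.000121). Fatty acid uptake and oxidation showed 30 of 36 genes called lower, none called higher and 6 not called, with a median of -2.95. The acyl-CoA synthetase genes *acsl1b* and *acsl1a*, which activate fatty acids, had log2 fold changes of -4.72 (edgeR BH-adjusted p = 8.29e-05) and -3.79 (edgeR BH-adjusted p = 0.000133). *ppargc1a*, which encodes a coactivator of mitochondrial gene expression, was measured at 1.01 and 0.169 CPM in the SV libraries and 21.2 and 33.5 CPM in the V libraries, and its log2 fold change was -6.22 (edgeR BH-adjusted p = 0.000128). For glycolysis and lactate transport, 27 of 40 genes were called lower, 3 were called higher and 10 were not called, with a median of -2.46. The lactate dehydrogenase gene *ldhba* (log2 fold change -3.86, edgeR BH-adjusted p = 9.84e-05), the phosphofructokinase gene *pfkpb* (-3.46, edgeR BH-adjusted p = 0.000196) and the glucose transporter gene *slc2a1a* led this list. *slc2a1a* was low in the V too, at 2.21 and 1.89 CPM, and had 1 count in the SV, so that only a ratio of 176 (95% exact counting interval 31.1 to 6987) of V to SV can be given. The 3 genes called higher in the SV were *hk2*, *eno2* and *pklr*, the last of which encodes the pyruvate kinase of liver and red blood cells.

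Smooth muscle contractile genes that were called were more often higher than lower in the mutant SV. Of 52 tested members, 22 were called higher in the SV, 8 were called lower and 22 were not called, with a median of 1.09. The tropomyosin gene *tpm4b* was measured at 84.4 and 65.0 CPM in the SV libraries and 2.0 and 0.959 CPM in the V libraries. SV and V did not overlap, and the log2 fold change of *tpm4b* was 5.59 (SE 0.52, edgeR BH-adjusted p = 9.9e-05). *mylka*, the gene of the kinase that activates smooth muscle myosin, was measured at 172 and 286 CPM in the SV libraries and 7.73 and 6.47 CPM in the V libraries. *tagln*, an actin binding protein gene of smooth muscle, stood at 434 and 1897 CPM in the SV libraries and 44.3 and 43.1 CPM in the V libraries. SV library 2 was the higher of the SV pair in both genes and both pairs were apart. Log2 fold changes were 5.01 (edgeR BH-adjusted p = 0.000118) for *mylka* and 4.58 (edgeR BH-adjusted p = 0.00012) for *tagln*. The smooth muscle actin gene *acta2* was measured at 409 and 3076 CPM in the SV libraries and 25.5 and 79.5 CPM in the V libraries. The smooth muscle myosin gene *myh11a* stood at 83.9 and 227 CPM in the SV libraries and 9.29 and 5.48 CPM in the V libraries. The SV libraries differed severalfold from each other in *acta2*, again with library 2 on top, yet library 1 still exceeded both V libraries. Their log2 fold changes were 5.03 (edgeR BH-adjusted p = 0.000208) for *acta2* and 4.34 (edgeR BH-adjusted p = 0.000379) for *myh11a*.

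The members of this list on the V side included shared or striated muscle genes such as *sorbs2a*, *fhl1a* and *pdlim3b*. They also included *smtnb* (log2 fold change -2.5, edgeR BH-adjusted p = 0.0222), whereas *smtna* was called higher in the SV (3.03, edgeR BH-adjusted p = 0.0172). The myosin light chain genes *myl9a* and *myl9b* behaved differently from *mylka*. *myl9b* was called lower in the SV, at 151 and 231 CPM in the SV and 621 and 858 CPM in the V (log2 fold change -1.89, edgeR BH-adjusted p = 0.00255). *myl9a* had 250.2 and 497 CPM in the SV and 262 and 464 CPM in the V. The *myl9a* values overlapped between the tissues and its log2 fold change of 0.14 (edgeR BH-adjusted p = 0.804) did not pass the test. Summed over the list, the level was 3643 and 10093 CPM in the SV libraries and 3042 and 5218 CPM in the V libraries, so the sums overlapped although most called members were higher in the SV. The count of 8 genes called lower fell to 4 without SV library 2 and to 5 without V library 2. Without SV library 2 the count called higher fell from 22 to 15, and the median was 0.61.

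In every class of extracellular matrix genes examined, more genes were called higher in the mutant SV than lower. Among elastic fibre genes, 12 of 29 tested were called higher, 3 were called lower and 14 were not called, with a median of 1.37. *elnb*, one of the zebrafish elastin genes, was measured at 59.7 and 37.7 CPM in the SV libraries and 0.0481 and 0.164 CPM in the V libraries. The V values of 2 and 6 counts stood near the floor, and the log2 fold change was 8.78 (SE 0.90, edgeR BH-adjusted p = 0.000135). The fibulin gene *fbln5*, needed for the assembly of elastic fibres in mice, was measured at 86.8 and 55.1 CPM in the SV libraries and 3.85 and 3.29 CPM in the V libraries. The microfibril gene *mfap5* stood at 201 and 247 CPM in the SV libraries and 22.0 and 22.0 CPM in the V libraries. Both SV libraries exceeded both V libraries by a wide margin for each gene. They had log2 fold changes of 4.17 (edgeR BH-adjusted p = 8.29e-05) for *fbln5* and 3.35 (edgeR BH-adjusted p = 0.000196) for *mfap5*. Also on the SV side were the lysyl oxidase genes *loxa*, *loxl2b* and *loxl3b*, whose products cross-link elastin and collagen, and on the V side *efemp2a*, *emilin1a* and *mmrn2a*.

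Of 43 tested collagen genes 19 were called higher in the SV, 1, *col13a1*, was called lower and 23 were not called, with a median of 2.07, or 1.95 with genes at 0 in a group set to their bound. The fibrillar collagen I genes led in level. *col1a1b* was measured at 1145 and 1149 CPM in the SV libraries and 122.7 and 91.8 CPM in the V libraries. *col1a2* stood at 787 and 587 CPM in the SV libraries and 92.0 and 55.6 CPM in the V libraries. In both genes the SV replicates were close to each other and far above the V replicates. Their log2 fold changes were 3.39 (edgeR BH-adjusted p = 0.000113) for *col1a1b* and 3.13 (edgeR BH-adjusted p = 0.000137) for *col1a2*, and the third of the most significant collagen genes, *col15a1a*, a basement membrane chain gene, had 3.45 (edgeR BH-adjusted p = 0.000195). Collagen VI genes *col6a1*, *col6a2*, *col6a3* and *col6a4a* were called higher too, whereas the main basement membrane collagen genes *col4a1* and *col4a2* had log2 fold changes of 0.21 and 0.37 and were not called.

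Among proteoglycan and hyaluronan genes 12 of 28 tested were called higher, 1, *acanb*, was called lower and 15 were not called, with a median of 2.1. Of those called higher, *itih2* and *itih3a* are also in the list of hepatocyte and plasma protein genes below. *acanb* had no count in the SV and 21 counts in the V, and no gene of this list was called lower without the RUVs factor. The aggrecan gene *acana*, known best from cartilage, was measured at 69.2 and 72.4 CPM in the SV libraries and 0.602 and 3.54 CPM in the V libraries. The SV replicates were nearly equal, and the V replicates were both far lower, with library 2 the higher. Its log2 fold change was 5.54 (SE 0.69, edgeR BH-adjusted p = 0.000335). *vcanb*, a versican gene, had 18.8 and 25.3 CPM in the SV and 2.5 and 1.53 CPM in the V (log2 fold change 3.44, edgeR BH-adjusted p = 0.00023). *itih1*, whose product binds hyaluronan, had 61.5 and 27.5 CPM in the SV and 0.794 and 1.26 CPM in the V (log2 fold change 5.22, edgeR BH-adjusted p = 0.000154). Among matricellular, laminin and integrin genes 16 of 46 tested were called higher, 6 were called lower and 24 were not called, with a median of 0.79. The fibronectin gene *fn1a* was measured at 222 and 190.0 CPM in the SV libraries and 12.8 and 9.35 CPM in the V libraries, and its log2 fold change was 4.16 (edgeR BH-adjusted p = 7.28e-05). The thrombospondin gene *thbs4b* was measured at 9.94 and 28.7 CPM in the SV libraries and 0.409 and 0.0548 CPM in the V libraries, with a log2 fold change of 6.24 (edgeR BH-adjusted p = 0.000245). *spock3*, the gene of a matrix proteoglycan that is used as an arterial and endocardial marker, went the other way, at 48.5 and 64.2 CPM in the SV and 1038 and 830.4 CPM in the V (log2 fold change -4.05, edgeR BH-adjusted p = 0.000104). The laminin genes *lama2*, *lama5* and *lamb2* and the muscle integrin gene *itga7* were on the V side as well, while *lamb1b* and *nid1a* were on the SV side. The count of 6 genes called lower fell to 1 without SV library 2.

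Matrix metalloproteinase, ADAMTS and inhibitor genes showed 15 of 37 tested called higher in the SV, 3 called lower and 19 not called, with a median of 1.77. The gelatinase gene *mmp2* was measured at 54.8 and 86.0 CPM in the SV libraries and 12.2 and 11.7 CPM in the V libraries, and its log2 fold change was 2.57 (edgeR BH-adjusted p = 0.00043). The others with the smallest p values were on the V side. *mmp23ba* had 24.5 and 46.6 CPM in the SV and 149 and 151 CPM in the V (log2 fold change -2.07, edgeR BH-adjusted p = 0.000771), and *adamtsl5* had 0.0229 and 0.144 CPM in the SV and 1.93 and 2.19 CPM in the V (log2 fold change -4.62, edgeR BH-adjusted p = 0.000881). Without V library 1 the count called higher in this list was 9.

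Cardiac transcription factor genes that were called were lower in the mutant SV with 1 exception. Of 36 tested members of this list, which also holds the natriuretic peptide and *bmp10* genes, 18 were called lower, 1 was called higher and 17 were not called, with a median of -1.51. *nkx2.5*, a core regulator of the myocardium, was measured at 10.6 and 1.97 CPM in the SV libraries and 288 and 343 CPM in the V libraries. Both V libraries were far above both SV libraries, and the log2 fold change was -6.41 (SE 0.82, edgeR BH-adjusted p = 0.000361). *tbx5a*, a T-box gene of the heart field, had 1.37 and 0.578 CPM in the SV and 25.0 and 22.9 CPM in the V (log2 fold change -4.91, edgeR BH-adjusted p = 0.000466). *irx5a*, an Iroquois gene, had 1.81 and 1.66 CPM in the SV and 35.6 and 40.7 CPM in the V (log2 fold change -4.48, edgeR BH-adjusted p = 0.000331). *bmp10*, a ligand gene of trabecular myocardium, was nearly restricted to the V, with 0.0458 and 0.0241 CPM in the SV and 4.48 and 5.15 CPM in the V, a ratio of 136 (95% exact counting interval 46.2 to 663). *hand2* was lower but well detected in the SV, at 51.4 and 34.4 CPM in the SV and 243 and 205 CPM in the V (log2 fold change -2.52, edgeR BH-adjusted p = 0.00103). The exception was *tbx1*, a gene of the pharyngeal and outflow field, at 6.02 and 5.63 CPM in the SV and 0.433 and 0.192 CPM in the V, and the GATA factor genes *gata4*, *gata5* and *gata6* were not called. Natriuretic peptide genes, markers of working and stretched myocardium, were on the V side. *nppa* was measured at 173 and 25.2 CPM in the SV libraries and 2848 and 5672 CPM in the V libraries. *nppb* stood at 175 and 15.4 CPM in the SV libraries and 1157 and 2692 CPM in the V libraries. For both genes SV library 1 stood several-fold above SV library 2, while neither reached the V libraries. The log2 fold changes were -6.36 (edgeR BH-adjusted p = 0.0014) for *nppa* and -5.64 (edgeR BH-adjusted p = 0.0121) for *nppb*, and *nppb* was no longer called without SV library 2 (log2 fold change -3.54, edgeR BH-adjusted p = 0.143).

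Hox cluster genes, which mark positions along the body axis and include genes used by the posterior heart field and neural crest, were found in the SV and were low in the V. Of 21 tested members, 16 were called higher in the SV, none was called lower and 5 were not called. The median was 5.71, or 4.05 with genes at 0 in the V set to their bound. For 10 members a tissue had no count, and these could not have been called lower in the SV. With a filter at a mean of 1 CPM, 6 members were tested and 6 were called higher, with a median of 5.04. The list summed to 42.3 and 62.7 CPM in the SV libraries and to 2.2 and 1.5 CPM in the V libraries. *hoxa1a* was measured at 5.22 and 18.6 CPM in the SV libraries and 0.241 and 0.247 CPM in the V libraries. *hoxa4a* stood at 4.97 and 11.0 CPM in the SV libraries and 0.722 and 0.548 CPM in the V libraries. *hoxb2a* stood at 3.3 and 5.25 CPM in the SV libraries and 0.265 and 0.192 CPM in the V libraries. In all 3 genes the SV replicates exceeded the V replicates, with SV library 2 on top. The log2 fold changes were 5.52 (edgeR BH-adjusted p = 0.000896), 3.62 (edgeR BH-adjusted p = 0.00185) and 4.21 (edgeR BH-adjusted p = 0.00137) in that order, and that of *hoxb3a*, at 13.0 and 9.6 CPM in the SV and 0.770 and 0.219 CPM in the V, was 4.44 (edgeR BH-adjusted p = 0.00647). *hoxb5a* had 6.34 and 5.01 CPM in the SV and no count in either V library, and was at least 73.5-fold higher in the SV when the V is set to 3 counts per library. When 1 of the 4 libraries was left out 8 to 10 members were called, and *hoxb3a* lost its call without V library 2 (edgeR BH-adjusted p = 0.0554).

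Genes of the cardiac inflow and pacemaker region gave a mixed picture. Of 44 tested members, 12 were called higher in the SV, 4 were called lower and 28 were not called, with a median of 1.41, or 1.26 with genes at 0 set to their bound. *nr2f1a* itself, which carries the aco allele, was measured at 13.1 and 24.6 CPM in the SV libraries and 2.05 and 1.48 CPM in the V libraries, and its log2 fold change was 3.41 (SE 0.42, edgeR BH-adjusted p = 0.00032). Its paralog *nr2f2*, a venous and atrial regulator in mammals, had 11.5 and 16.5 CPM in the SV and 13.7 and 10.7 CPM in the V. These *nr2f2* values overlapped and the log2 fold change of 0.20 (edgeR BH-adjusted p = 0.785) did not pass the test. *six1a*, a homeobox gene of the pharyngeal region, was detected in the SV only, with 3.53 and 5.2 CPM there and no count in either V library, and was at least 56.5-fold higher. The TALE homeobox genes *meis1a* and *meis2a*, partners of Hox proteins, were also called higher. *tbx18*, which marks the inflow field and epicardium, was measured at 6.94 and 2.46 CPM in the SV libraries and 0.987 and 0.822 CPM in the V libraries. SV and V did not overlap in *tbx18*, but the log2 fold change of 1.99 (edgeR BH-adjusted p = 0.0201) was no longer called when SV library 1, V library 1 or V library 2 was left out (edgeR BH-adjusted p between 0.0961 and 0.158).

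The pacemaker genes *hcn4*, *isl1* and *shox2* were not called higher in the mutant SV. The pacemaker channel gene *hcn4* was low in all 4 libraries, at 0.229 and 0 CPM in the SV libraries and 0.866 and 0.767 CPM in the V libraries. *isl1*, a regulator of sinoatrial cells, was lower still, at 0.252 and 0.0722 CPM in the SV libraries and 0 and 0 CPM in the V libraries. The log2 fold change of *hcn4* was -4.27 (edgeR BH-adjusted p = 0.0317), with the V higher, but without the RUVs factor it was -2.79 and was not called (edgeR BH-adjusted p = 0.236). That of *isl1* did not pass the test (edgeR BH-adjusted p = 0.162), and 11 and 3 counts were behind its SV values. *hcn2b*, another pacemaker channel gene, was clearly on the V side, at 12.7 and 9.2 CPM in the SV and 232 and 325 CPM in the V (log2 fold change -4.72, edgeR BH-adjusted p = 0.000191), like the T-type channel gene *cacna1g*. *shox2* was measured at 0.114 and 0.144 CPM in the SV libraries and 0.0722 and 0.137 CPM in the V libraries and was not called. Without V library 2 the count called higher in this list was 7.

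Receptors and peptides that set vessel tone and heart rate also split. Of 34 tested, 7 were called higher in the SV, 6 were called lower and 21 were not called, with a median of 0.95. The beta-adrenergic receptor gene *adrb2b* was on the V side, at 0.710 and 0.409 CPM in the SV and 30.3 and 33.2 CPM in the V (log2 fold change -5.98, edgeR BH-adjusted p = 0.00101). So was the endothelin receptor gene *ednrab*, at 2.45 and 0.578 CPM in the SV and 28.4 and 79.3 CPM in the V (log2 fold change -5.57, edgeR BH-adjusted p = 0.00102). The beta-adrenergic receptor gene *adrb3a* was on the SV side, at 20.0 and 37.3 CPM in the SV and 2.67 and 2.8 CPM in the V (log2 fold change 3.4, edgeR BH-adjusted p = 0.000458). On that side too were *adra1d*, an alpha-adrenergic receptor gene, the adrenomedullin gene *admb* and the natriuretic peptide receptor gene *npr2*, and the list median was 0.47 without V library 2. The angiotensinogen gene *agt*, a product of liver in many vertebrates, had 215 and 3.27 CPM in the SV, so that SV library 1 alone held nearly all of it, and 0.168 and 0.302 CPM in the V.

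Called genes shared by all endothelium fell evenly on both sides. Called genes of the arterial list were more often on the V side, and those of the venous list more often on the SV side. Some members of the arterial list also belong to the lists of cardiac factors or ion channels. Of 32 tested genes shared by endothelial and endocardial cells, 4 were called higher in the SV, 4 were called lower and 24 were not called. This called share was near the 21.0% over all genes. The median of -0.06 was near that of all genes and became 0.04 with DESeq2 size factors and 0.49 with library totals. *cdh5*, the gene of the vascular endothelial cadherin, had 4.92 and 4.36 CPM in the SV and 8.71 and 8.09 CPM in the V, and its log2 fold change of -0.90 (edgeR BH-adjusted p = 0.259) did not pass the test. Among called genes, *lmo2*, a regulator shared by blood and endothelium, had the smallest p and was on the SV side, at 32.5 and 76.9 CPM in the SV and 6.93 and 12.8 CPM in the V (log2 fold change 2.57, edgeR BH-adjusted p = 0.000182). *mmrn2a*, the gene of an endothelial matrix protein, was on the V side, at 41.1 and 24.7 CPM in the SV and 128 and 96.1 CPM in the V (log2 fold change -1.93, edgeR BH-adjusted p = 0.00314). *pecam1*, an endothelial adhesion gene, was on the SV side, at 48.0 and 52.2 CPM in the SV and 11.7 and 19.7 CPM in the V (log2 fold change 1.74, edgeR BH-adjusted p = 0.00429). Single libraries decide some of these calls, since *mmrn2a* was not called without SV library 2 and *pecam1* was not called without V library 1.

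Of 21 tested arterial genes, 10 were called lower in the SV, 4 were called higher and 7 were not called, with a median of -1.02, or -0.51 with genes at 0 set to their bound. *gja5a* and *spock3* led the V side, followed by the Notch pathway genes *notch1b*, *dll4* and *jag2b* and the water channel gene *aqp8a.1*. Also on this side were *gja5b*, *tbx20* and *hey2*. *tbx20* and *hey2* are in the list of cardiac factors too, and *gja5a* and *gja5b* in that of ion channels and connexins. Which cells these calls come from was not tested. The Notch ligand gene *jag1b* went the other way, at 32.1 and 26.7 CPM in the SV and 5.82 and 5.07 CPM in the V (log2 fold change 2.36, edgeR BH-adjusted p = 0.00035), as did *jag1a* and *vegfc*. Without the RUVs factor 6 arterial genes were called lower, and without V library 2 the median was -0.05. Of 20 tested venous and lymphatic genes, 8 were called higher in the SV, 2 were called lower and 10 were not called, with a median of 0.63. *nrp2a*, a receptor gene of veins and lymphatics, was measured at 7.17 and 16.0 CPM in the SV libraries and 0.698 and 0.987 CPM in the V libraries. *dab2*, an endocytic adaptor gene of veins, stood at 19.8 and 20.2 CPM in the SV libraries and 0 and 0.219 CPM in the V libraries. The V libraries were lower in both genes without overlap, and the log2 fold changes were 3.82 (edgeR BH-adjusted p = 0.000103) for *nrp2a* and 7.8 (edgeR BH-adjusted p = 0.000147) for *dab2*. The scavenger receptor genes *lyve1a*, *lyve1b*, *stab2* and *mrc1a* and the lymphatic receptor gene *flt4* were called higher too. *prox1a*, a lymphatic regulator that is also expressed in cardiomyocytes, was instead on the V side, at 7.4 and 6.04 CPM in the SV and 100.1 and 106 CPM in the V (log2 fold change -4.0, edgeR BH-adjusted p = 0.000103). The called share of 27 endocardial, valve and flow-sensing genes was near the 21.0% over all genes. Of them, 3 were called higher, 2 were called lower and 22 were not called, with a median of 0.32. They included *id1*, a BMP target, at 247 and 352 CPM in the SV and 57.5 and 41.5 CPM in the V (log2 fold change 2.6, edgeR BH-adjusted p = 0.00101), the polycystin gene *pkd1a* (1.53, edgeR BH-adjusted p = 0.00538) and the flow-gated channel gene *trpv4*, which was on the V side (-2.47, edgeR BH-adjusted p = 0.00342). The call of *pkd1a* was lost without V library 2 (edgeR BH-adjusted p = 0.073) and that of *trpv4* without SV library 2 (edgeR BH-adjusted p = 0.0941).

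Epicardial, fibroblast and mural cell genes were called higher in the SV more often than lower. Of 23 tested epicardial and mesothelial genes, 14 were called higher, 2 were called lower and 7 were not called, with a median of 1.99. The Wilms tumour gene *wt1b* was measured at 28.0 and 30.9 CPM in the SV libraries and 3.92 and 3.26 CPM in the V libraries. *cldn11a*, a tight junction gene, stood at 31.5 and 22.8 CPM in the SV libraries and 1.73 and 3.18 CPM in the V libraries. Both SV libraries were above both V libraries in each gene, and the log2 fold changes were 3.02 (edgeR BH-adjusted p = 0.000282) for *wt1b* and 3.45 (edgeR BH-adjusted p = 0.0005) for *cldn11a*. The annexin gene *anxa1a* had a log2 fold change of 2.8 (edgeR BH-adjusted p = 0.00035). *tcf21*, a marker of epicardium and cardiac fibroblasts, had 12.8 and 11.3 CPM in the SV and 4.16 and 4.82 CPM in the V and a log2 fold change of 1.4 (edgeR BH-adjusted p = 0.0279), which lost its call when any of the 4 libraries was left out (edgeR BH-adjusted p between 0.0696 and 0.169). Of 27 tested fibroblast, pericyte and PDGF genes, 14 were called higher, 2 were called lower and 11 were not called, with a median of 2.38. *mgp*, which encodes an inhibitor of calcification in vessel walls, had 16.6 and 30.4 CPM in the SV and 1.61 and 3.32 CPM in the V (log2 fold change 3.39, edgeR BH-adjusted p = 0.000141). *thy1*, a stromal surface protein gene, had 51.4 and 78.1 CPM in the SV and 8.74 and 8.0 CPM in the V (log2 fold change 2.96, edgeR BH-adjusted p = 0.000154). The mesenchymal regulators *twist1a*, *prrx1a* and *prrx1b* were called higher, while *abcc9*, which is used as a pericyte marker and is also a subunit gene of the cardiac KATP channel, was called lower. Without V library 1 the epicardial count was 9.

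Of 52 tested signalling genes of the TGF-beta and BMP pathways, 9 were called higher in the SV, 4 were called lower and 39 were not called, so that the called share was near the 21.0% over all genes, with a median of 0.23. The latent TGF-beta binding gene *ltbp1* had 48.6 and 36.1 CPM in the SV and 11.2 and 4.14 CPM in the V (log2 fold change 2.44, edgeR BH-adjusted p = 0.0015), beside *id1* and *bmp10* given above. Without V library 1 the count called higher was 5, and without SV library 1 the count called lower was 1. Among Wnt and retinoic acid genes 13 of 52 tested were called higher, 5 were called lower and 34 were not called, with a median of 0.36, or 0.28 with genes at 0 set to their bound, and the count called lower was 1 to 4 when a library was left out. The Wnt modulator gene *dkk3b* was measured at 24.9 and 27.1 CPM in the SV libraries and 2.62 and 4.17 CPM in the V libraries. The cellular retinoic acid binding protein gene *crabp2b* stood at 11.6 and 23.7 CPM in the SV libraries and 0.770 and 0.548 CPM in the V libraries. The retinal reductase gene *dhrs3a* stood at 33.9 and 53.1 CPM in the SV libraries and 2.38 and 6.47 CPM in the V libraries. All 3 were higher in both SV libraries than in both V libraries, and the log2 fold changes were 2.98 (edgeR BH-adjusted p = 0.000196), 4.72 (edgeR BH-adjusted p = 0.000373) and 3.52 (edgeR BH-adjusted p = 0.000563) in that order. The retinoic acid binding genes *crabp1a*, *crabp1b* and *crabp2a* were called higher as well, whereas *aldh1a2*, which makes retinoic acid, had 282 and 207 CPM in the SV and 169.6 and 97.2 CPM in the V and was not called.

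Liver markers were higher in the mutant SV libraries. Of 32 tested hepatocyte and plasma protein genes, 30 were called higher in the SV, none was called lower and 2 were not called, with a median of 5.42. In a fit of the mutant libraries alone, without the RUVs factor, 9 of 31 were called higher. Over all libraries without the factor, 32 were called higher. The list summed to 13427 and 3090 CPM in the SV libraries and to 199 and 408 CPM in the V libraries, or 2.07% and 0.412% of counts in the SV and 0.0236% and 0.0315% in the V. SV library 1 thus held most of this signal, and the median was 8.68 without SV library 2 and 9.05 without V library 2. *kng1*, the kininogen gene, was measured at 259 and 43.0 CPM in the SV libraries and 0.530 and 0.411 CPM in the V libraries. *f2*, the prothrombin gene, stood at 72.6 and 7.94 CPM in the SV libraries and 0.0722 and 0.247 CPM in the V libraries. The log2 fold changes were 7.61 (edgeR BH-adjusted p = 0.000352) for *kng1* and 6.85 (edgeR BH-adjusted p = 0.000984) for *f2*. *ahsg2*, a fetuin gene, had 1 count in the V libraries together and an SV to V ratio of 1632 (95% exact counting interval 293 to 64490.0). The liver fatty acid binding gene *fabp10a*, a defining marker of hepatocytes, stood at 141 and 18.8 CPM in the SV libraries and 0.0481 and 2.99 CPM in the V libraries. The WT SV libraries held the same list at 3925 and 3645 CPM. The genes *itih1*, *itih3a*, *agt* and *pklr*, which liver expresses in many vertebrates, were likewise higher in SV library 1 than in SV library 2. In the WT SV libraries, however, *itih1* stood at 0.343 and 0.908 CPM, against 61.5 and 27.5 CPM in the mutant SV libraries. The part of liver RNA in the differences between SV and V was not tested.

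Nearly all blood cell markers that were called were higher in the SV, although most leukocyte and lymphocyte markers were not called. Of 15 red blood cell genes, 8 were called higher, 1, *sptb*, was called lower and 6 were not called, with a median of 1.84, and the sums were 17600 and 22105 CPM in the SV and 6129 and 3538 CPM in the V. The haem synthesis gene *alas2* (log2 fold change 2.44, edgeR BH-adjusted p = 0.000725), the membrane skeleton gene *epb41b* (2.25, edgeR BH-adjusted p = 0.00124) and the haemoglobin gene *hbaa1* (2.28, edgeR BH-adjusted p = 0.00474) had the smallest p values. Haemoglobin genes share reads with near-identical copies, so single genes are uncertain. The haemoglobin gene *ba1*, at 38023 and 43908 FPKM among the most abundant genes of the SV libraries, is not in this list, so the sums leave it out. Without SV library 2 the red blood cell count was 5 and without V library 2 it was 3. Of 26 leukocyte and macrophage genes, 11 were called higher, none was called lower and 15 were not called, with a median of 1.33, and the sums were 1704 and 1884 CPM in the SV and 718 and 734 CPM in the V. *coro1a*, a pan-leukocyte actin regulator gene, had 53.9 and 53.2 CPM in the SV and 15.5 and 19 CPM in the V (log2 fold change 1.62, edgeR BH-adjusted p = 0.00638). The granulin gene *grn1* had a log2 fold change of 1.84 (edgeR BH-adjusted p = 0.0143), and the macrophage gene *mfap4* had 1.44 (edgeR BH-adjusted p = 0.014). The leukocyte count is not stable, as it was 5 without the RUVs factor and between 1 and 8 when a library was left out, and *mfap4* was among the genes lost without the factor. Of 22 neutrophil, lymphocyte and thrombocyte genes, 8 were called higher, none was called lower and 14 were not called, with a median of 1.76, and the sums were 14030 and 5794 CPM in the SV and 1861 and 805 CPM in the V. These were led by thrombocyte genes, the platelet glycoprotein gene *gp1bb* (log2 fold change 2.92, edgeR BH-adjusted p = 0.00035) and the thrombospondin gene *thbs1b* (3.46, edgeR BH-adjusted p = 0.000516), and by the fibronectin gene *fn1b* (2.86, edgeR BH-adjusted p = 0.000583), which is not restricted to blood and made up most of these sums. The count of 8 was 5 without the RUVs factor and 3 without V library 1. Every member of the red blood cell, leukocyte and lymphocyte lists had counts in both tissues, and the part of blood in the differences was not tested.

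**Figure D3:**
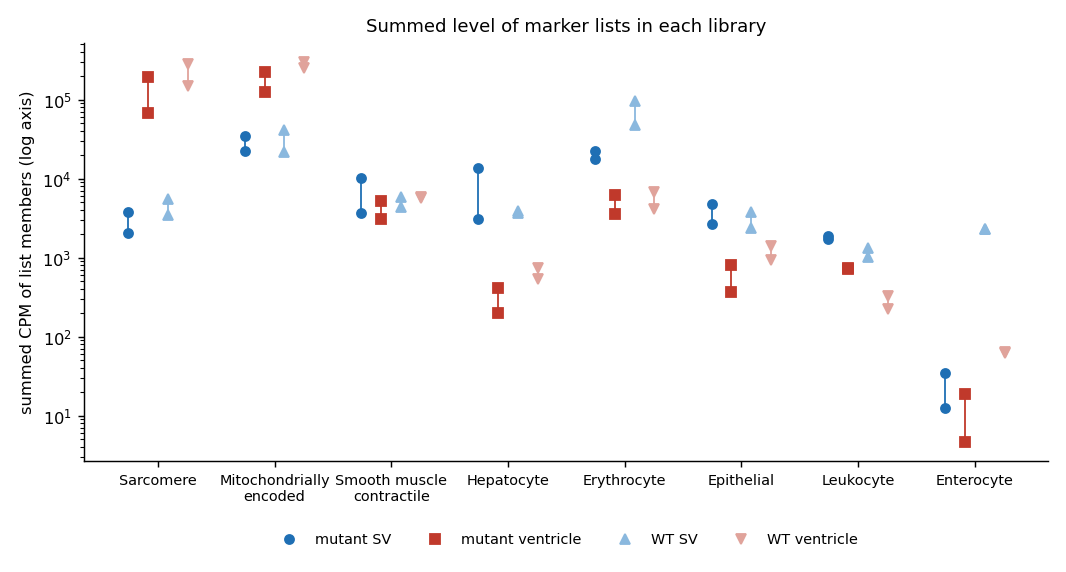
Summed level of 8 gene lists in each SV and V library of mutant and WT fish, as CPM on a log axis, with 1 point a library. The sarcomere sums of the mutant SV (3819 and 2053 CPM) lie far below those of the mutant V (67437 and 192196 CPM), the hepatocyte sums of the mutant SV (13427 and 3090 CPM) lie far above those of the mutant V (199 and 408 CPM), and the enterocyte sums are high in the WT SV alone (2302 and 2291 CPM).

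Epithelial, neural and skeletal muscle markers were also detected in the SV. Of 20 tested epithelial, gill, pharynx and thyroid genes, 15 were called higher, none was called lower and 5 were not called, with a median of 4.4, or 3.66 with genes at 0 set to their bound, and sums of 2689 and 4736 CPM in the SV and 367 and 797 CPM in the V. The keratin gene *krt91* was measured at 479 and 1539 CPM in the SV libraries and 46.1 and 97.4 CPM in the V libraries. *krt4* stood at 370.4 and 584 CPM in the SV libraries and 53.6 and 65.9 CPM in the V libraries. The epithelial adhesion gene *epcam* stood at 32.8 and 9.63 CPM in the SV libraries and 0 and 0.0274 CPM in the V libraries. Both keratin genes were also present in the V, unlike *epcam*, and their log2 fold changes were 3.9 (edgeR BH-adjusted p = 0.000147) for *krt91* and 3.04 (edgeR BH-adjusted p = 0.000273) for *krt4*. For the thyroglobulin gene *tg*, SV library 2 alone was high, and the tissues overlapped. Of 31 tested neuron and glia genes, 15 were called higher in the SV, 1, *hand2*, was called lower and 15 were not called, with a median of 3.92, or 1.96 with genes at 0 set to their bound. The neural sums went against the counts, at 121 and 169 CPM in the SV and 273 and 233 CPM in the V, where *hand2*, which is also a heart gene, made up most of them. *s100b*, a glial gene, had 3.64 and 5.32 CPM in the SV and 2 counts in the V, a ratio of 174 (95% exact counting interval 47.8 to 1442). The myelin gene *mbpa* had 1.44 and 11.9 CPM in the SV and 0.168 and 0.356 CPM in the V (log2 fold change 4.5, edgeR BH-adjusted p = 0.000528). The autonomic regulator gene *phox2bb* and the nerve genes *prph*, *stmn2a* and *gap43* were called higher, whereas the neuronal synapse gene *snap25b* was not called, and *phox2bb* and the choline acetyltransferase gene *chata* had no count in the V. Without SV library 2 or V library 2 the neural count called higher was 9 (the median was 1.5 without SV library 2), and without V library 1 the epithelial count was 9. Of 27 tested skeletal muscle genes, 8 were called higher, 4 were called lower and 15 were not called, with a median of 2.4, or 1.24 with genes at 0 set to their bound, and sums of 513 and 287 CPM in the SV and 6990 and 16882 CPM in the V. The fast myosin light chain gene *mylpfa* was on the SV side, at 10.3 and 27.4 CPM in the SV and 0.0241 and 0.110 CPM in the V (log2 fold change 8.22, edgeR BH-adjusted p = 7.46e-05). The creatine kinase gene *ckma* had 281 and 37.7 CPM in the SV and 4786 and 10824 CPM in the V (log2 fold change -6.57, edgeR BH-adjusted p = 0.00126). The actin gene *acta1b* had 115 and 114 CPM in the SV and 1948 and 5323 CPM in the V (log2 fold change -4.8, edgeR BH-adjusted p = 0.000671). These 2 genes were on the V side and are also heart muscle genes in fish. Without the RUVs factor or without V library 1 the skeletal muscle count called higher was 5. Of 20 intestinal genes, 5 were called higher, none was called lower and 15 were not called, with a median of 2.05, or 1.57 with genes at 0 set to their bound, and the sums were 34.4 and 12.5 CPM in the SV and 4.6 and 18.8 CPM in the V, so they overlapped. The called share of this list was near the 21.0% called in either direction over all genes, and without V library 1 the count was 3. The intestinal *fabp2* had a ratio of 143 (95% exact counting interval 25.3 to 5678) and *cdh17* a ratio of 59.5 (95% exact counting interval 10.3 to 2387). The part that these tissues have in the differences between SV and V was not tested. A tissue had no count for 7 neural, 4 epithelial, 3 skeletal muscle and 3 intestinal members. Those without a count in the V could not have been called lower in the SV. With a filter at a mean of 1 CPM, 18 neural members were tested, 11 called higher and 1 lower. With that filter 12 epithelial members were tested, 11 called higher and 0 lower.

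The genes with the largest differences in each direction, chosen among those with at least 5 CPM in the higher group, belonged to varied classes. On the SV side, *pi15b*, a peptidase inhibitor gene, had 5.13 and 20.2 CPM in the SV and no count in the V, so that it was at least 164-fold higher in the SV. *csf1b*, the gene of a macrophage growth factor, had 7.14 and 20.7 CPM in the SV and 2 counts in the V, a ratio of 538 (95% exact counting interval 148 to 4444). The soluble guanylate cyclase gene *gucy1a3*, which carries the response to nitric oxide in smooth muscle, had 4.85 and 95.4 CPM in the SV and 0.0722 and 0.0274 CPM in the V, with a log2 fold change of 9.3 (edgeR BH-adjusted p = 6.99e-05). SV library 2 was the higher for these 3 genes. The uncoupling protein gene *ucp1*, which in fish is best known from liver, had 136 and 4.98 CPM in the SV and a ratio of 1875 (95% exact counting interval 641 to 9094). The complement factor H-like gene *cfhl2* had 9.69 and 1.2 CPM in the SV and was at least 70.5-fold higher. Both had library 1 on top. The epithelial genes *epcam* and *cldnb* had ratios of 1678 (95% exact counting interval 301 to 66334) and 697 (95% exact counting interval 125 to 27561). The egg yolk gene *vtg5* had 0.0458 and 16.4 CPM in the SV, all but 2 counts of it from library 2, and no count in the V. It was at least 106-fold higher in the SV, and was not called without the RUVs factor or without SV library 2 (edgeR BH-adjusted p = 0.0663 and 0.401). *hoxb5a* and *elnb*, described above, complete the 10.

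On the V side *hrh3*, a histamine receptor gene, had no count in the SV and 3.27 and 22.9 CPM in the V, and was at least 185-fold lower in the SV. *ky*, a gene of muscle maintenance in mammals, had 1 count in the SV and 30.4 and 7.95 CPM in the V, a V to SV ratio of 1694 (95% exact counting interval 304 to 66941). *cnih3*, whose product escorts receptors to the membrane, had 1.97 and 17.3 CPM in the V and a ratio of 778 (95% exact counting interval 139 to 30753). V library 2 was the higher for *hrh3* and *cnih3* and V library 1 for *ky*. *prob1* had 9.29 and 13.9 CPM in the V and a ratio of 487 (95% exact counting interval 134 to 4028). *klhl30* had 5.94 and 10.8 CPM and a ratio of 351 (95% exact counting interval 96.6 to 2901). The immune-type receptor gene *nitr1n*, with library 1 on top, had 14.4 and 1.84 CPM and a ratio of 363 (95% exact counting interval 99.97 to 2999.9). The orphan receptor gene *gpr22a*, known from heart muscle in mammals, stood at 0.527 and 0.746 CPM in the SV and 104 and 276 CPM in the V (log2 fold change -8.0, edgeR BH-adjusted p = 8.39e-05), and *tmem91* had a log2 fold change of -8.36 (edgeR BH-adjusted p = 0.000191). *gja5a* and *vmhc* complete the 10. Counting over all genes, 180 called genes had no count at all in the lower group, 135 of them in the V, and 312 had between 1 and 3 counts there.

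The contrast between SV and V in WT fish shared most of these differences. In WT, 6832 genes were called, or 35.7% of those tested. Of the mutant calls 3288 were also called in WT in the same direction, which is 81.8% of the mutant and 48.1% of the WT calls, 718 were called in the mutant only and 12 were called in the opposite direction. The log2 fold changes of both contrasts correlated across genes with r = 0.727, a description over 19145 genes that are not independent replicates. The medians of all genes were 0.03 in the mutant and 0.21 in WT. A difference between the contrasts was called for 38 genes, 0.198% of those tested, 4 of them positive and 34 negative, and 2336 genes had an unadjusted p below 0.05. This count rests on the RUVs factor, as 5 genes were called without it. It was 11 without SV library 1, 19 without SV library 2 and 22 without V library 1.

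**Figure D4:**
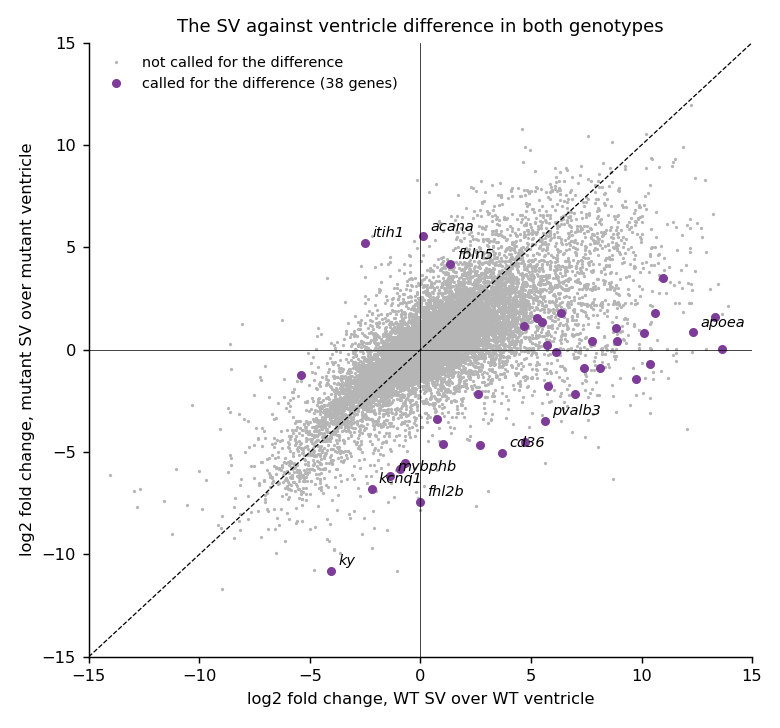
Log2 fold change of SV over V in WT (horizontal axis) against that in the mutant (vertical axis), 1 point a gene for 19145 genes, with the 38 genes called for the difference in purple. Genes spread along the diagonal, and the purple genes lie mostly below it, such as *apoea* and *cd36*, with 4 above it, among them *itih1* and *acana*.

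The genes called for this difference fell into a few classes. For 18 of the 38 there was no call in the mutant while WT fish had higher levels in the SV. *apoea*, an apolipoprotein gene, was such a gene, at 0.183 and 0.0481 CPM in the mutant SV, 0.0481 and 0.0548 CPM in the mutant V, 431 and 274 CPM in the WT SV and 0.0491 and 0.0587 CPM in the WT V. It was chosen after its values were seen, like *cd36* below. Its difference of -11.48 (SE 1.45, edgeR BH-adjusted p = 0.0129) was called without the factor, but not without V library 1 (edgeR BH-adjusted p = 0.0774), without V library 2 (edgeR BH-adjusted p = 0.0529) or with the replicate block in place of the factor (edgeR BH-adjusted p = 0.0608). The intestinal apolipoprotein gene *apoa4b.1* was called higher in the SV in both genotypes but far less so in the mutant. It had 1.28 and 3.68 CPM in the mutant SV and 289 and 386 CPM in the WT SV, against 0.0963 and 0.411 CPM and 0.393 and 0.147 CPM in the V, and a difference of -7.48 (SE 0.85, edgeR BH-adjusted p = 0.00853). The sums over the list of intestinal genes were 2302 and 2291 CPM in the WT SV and 34.4 and 12.5 CPM in the mutant SV. The part of intestinal RNA in this difference, and in those of the other genes that were high in the WT SV, *cd36* below included, was not tested.

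Some other genes, among them *cd36*, *itih1* and *pvalb3*, differed in direction between the genotypes. By contrast, *ky* and *kcnq1* were called lower in the SV in WT too, with WT log2 fold changes of -4.05 and -2.21. *fhl2b*, *slc22a7b.3* and *rgs6* were not called in WT, with log2 fold changes of -0.04, 1.04 and -0.94. The fatty acid transporter gene *cd36* was lower in the SV in the mutant, at 0.114 and 0.120 CPM against 4.6 and 3.15 CPM in the V, and higher in the SV in WT, at 20.6 and 23.7 CPM against 1.62 and 1.59 CPM. No library broke this order, and the difference was -8.75 (SE 0.68, edgeR BH-adjusted p = 0.00097). The hyaluronan binding gene *itih1* had the reverse order, with 61.5 and 27.5 CPM in the mutant SV, 0.794 and 1.26 CPM in the mutant V, 0.343 and 0.908 CPM in the WT SV and 3.14 and 2.94 CPM in the WT V, and a difference of 7.72 (SE 0.74, edgeR BH-adjusted p = 0.0027). The parvalbumin gene *pvalb3*, a fast skeletal muscle gene, was higher in the V in the mutant, mainly through V library 2, and higher in the SV in WT, with a difference of -9.09 (SE 1.22, edgeR BH-adjusted p = 0.0202). Without V library 2 its mutant contrast was not called (log2 fold change -1.81, edgeR BH-adjusted p = 0.17). *fhl2b*, a LIM-domain gene of heart muscle, had 0.0229 and 0.0722 CPM in the mutant SV and 6.28 and 12.4 CPM in the mutant V, but 4.6 and 2.33 CPM in the WT SV and 5.92 and 3.26 CPM in the WT V. Its WT values overlapped, and the difference was -7.38 (SE 0.63, edgeR BH-adjusted p = 0.00129). Negative differences were also called for the transporter gene *slc22a7b.3* (-5.64, SE 0.70, edgeR BH-adjusted p = 0.0129), the signalling regulator gene *rgs6* (-4.89, SE 0.83, edgeR BH-adjusted p = 0.0468) and *kcnq1* (-4.58, SE 0.71, edgeR BH-adjusted p = 0.0417). A negative difference was called for *ky* too (fitted value -6.74, edgeR BH-adjusted p = 0.0427). Its size is uncertain, since the mutant SV libraries held 1 count of this gene.

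Both *fbln5* and *acana* were among the 4 genes called with a positive difference. *fbln5* stood at 21.5 and 15.9 CPM in the WT SV and 5.36 and 7.72 CPM in the WT V, beside 86.8 and 55.1 CPM and 3.85 and 3.29 CPM in the mutant tissues, and the difference was 2.82 (SE 0.46, edgeR BH-adjusted p = 0.0426). *acana* stood at 11.9 and 5.75 CPM in the WT SV and 15.7 and 5.9 CPM in the WT V, which overlapped, beside 69.2 and 72.4 CPM and 0.602 and 3.54 CPM in the mutant tissues, and the difference was 5.41 (SE 0.84, edgeR BH-adjusted p = 0.0417). Without the RUVs factor neither was called for the difference (log2 2.79 with edgeR BH-adjusted p = 0.166 for *fbln5* and log2 5.4 with edgeR BH-adjusted p = 0.141 for *acana*). *vmhcl* was lower in the WT SV, at 10.7 and 5.4 CPM, than in the mutant SV, at 408 and 227 CPM, but its difference of 6.06 did not pass the test (edgeR BH-adjusted p = 0.124).

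Many zebrafish genes exist as duplicates named a and b, and in some pairs the members differed between SV and V in opposite directions. Among 1941 pairs with both members tested, both were called in 229, 1 was called in 600 and none in 1112. Where both were called, 184 pairs went in the same direction and 45 in opposite directions, and 29 of the 45 were also called with the same opposite directions in WT. In the pair *tpm4a* and *tpm4b* the log2 fold changes were -3.74 and 5.59. *fhl2a* and *fhl2b* had 2.0 and -7.42, *ckba* and *ckbb*, genes of brain-type creatine kinase, had 5.28 and -2.68, and *cavin1a* and *cavin1b*, genes of caveolae, had -5.68 and 3.11. Thus the member on the V side could be a or b. *mustn1a* and *mustn1b*, genes of muscle development, had 3.74 and -5.12, and the sodium pump genes *atp1a3a* and *atp1a3b* had 1.16 and -7.17. Symbols ending in a and b were paired by name, so some pairs may not be duplicates, and reads that matched both members equally well were not counted.

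**Figure D5:**
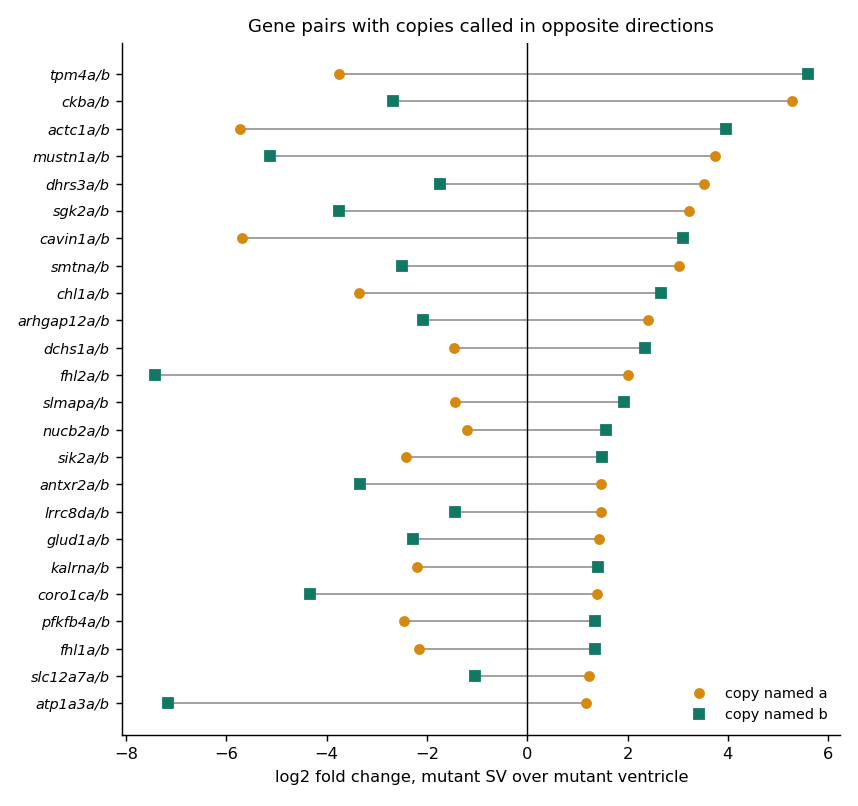
Log2 fold change of mutant SV over mutant V for both members of the 24 pairs of genes named a and b that were called in opposite directions and reached 5 CPM in the higher tissue, with 1 row a pair and a line joining its members. The pairs *tpm4a* and *tpm4b* (-3.74 and 5.59) and *fhl2a* and *fhl2b* (2.0 and -7.42) are among those with members far apart.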

How the data were processed

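Total RNA of pooled adult zebrafish tissue was sequenced. The authors' pipeline used cutadapt for trimming, STAR with danRer11 for alignment and featureCounts for assignment, and it kept unique alignments only. Libraries of several sequencing batches and types were handled as single-end. The batch of each library is not given in the sources used here, so no within-batch values could be computed. The deposited table gave raw counts per gene, and the authors' FPKM values beside them, which served only to compare levels between genes. It also gave the authors' mean FPKM and, for other comparisons, log2 fold changes, p-values and adjusted p-values, none of which were used.

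Counts of 19145 genes (of 22158 rows, some with symbols turned into dates) passed edgeR's filter on low counts (filterByExpr). They were fitted with edgeR 4.0.16 (R 4.3.3) by the quasi-likelihood test with TMM scaling, group and 1 RUVs factor over all 12 libraries, after the study's own use of RUVs, with Benjamini-Hochberg adjustment over all genes tested. DESeq2 1.42.0, other scalings, filters and fits, and leaving out each mutant library were alternatives. The scripts were tested on simulated data. Between 28325098 and 47245524 counts per mutant library keep counting error small for all but genes of few counts. The p-values measure the spread between samples of all groups that is left after the RUVs factor. This spread may be technical. The difference between mutant and WT fish was tested in the same fit.

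The libraries compared and the 36 gene lists were chosen with earlier results of these data known. Genes were named as the 10 largest called differences in each direction (groups apart, at least 5 CPM), the 3 smallest p values of each list, the 5 largest differences between genotypes in each direction, and a fixed set of anchors. Others were chosen after their values were seen, and some genes that the rule names are not reported here. No sequences were analysed here.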

Additional observations from a re-analysis of the deposited data

Results flagged for a closer look

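For 10 of the genes named by the fixed rule, the SV to V contrast differed between mutant and WT fish by the interaction test of the same edgeR fit. The rule names some of these genes by this same test, so their call here was fixed by the choice. The log2 differences, mutant minus WT, were -9.09 for *pvalb3*, -7.48 for *apoa4b.1*, -7.38 for *fhl2b*, -6.74 for *ky* (uncertain in size, with 1 count in the mutant SV), -5.64 for *slc22a7b.3*, -4.89 for *rgs6* and -4.58 for *kcnq1*. They were 2.82 for *fbln5*, 5.41 for *acana* and 7.72 for *itih1*. Of 14 alternative settings, *itih1* was called for the difference in 14, *fhl2b* in 13, *apoa4b.1* and *slc22a7b.3* in 11, *pvalb3* in 8, *acana* in 6, *ky*, *rgs6* and *kcnq1* in 4 and *fbln5* in 2. In *pvalb3* V library 2 stood far above V library 1, at 54.2 against 5.87 CPM.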

How the results depend on the processing

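Of the values for single named genes under the alternatives, 2043 kept their side of the threshold and 65 kept their direction but missed it. No value that was called in the main or the alternative fit reversed. Changes of direction in genes called in neither fit were not counted. The count of called genes in the mutant contrast ranged from 2853 to 2997 when a mutant library was left out, that of genes higher in the SV from 1005 (without V library 1) to 1514, that of genes lower in the SV from 1429 to 1977, and that of genes called for the difference from WT from 11 to 35. In a fit of the mutant libraries alone, without a factor, 2269 genes were called, 994 higher and 1275 lower, and against a minimum fold of 2, 2309 were called, 1033 higher and 1276 lower (4322 in WT). DESeq2 called 5007 genes and the fit without the RUVs factor 3519. Library totals without TMM gave 3320 genes higher in the SV. The difference from WT was called for 5 genes without the factor, 595 with DESeq2, 10 each with a filter at a mean of 1 CPM, with DESeq2 size factors or without mitochondrially encoded genes, and 11 against a minimum fold of 2, and the cause was not tested.

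Across genes the deviations of SV library 1 and V library 1 correlated with r = -0.082, and the numbers were not taken as pairs. This check covers the mutant libraries only. On the RUVs factor, SV library 1 and V library 1 stood at -2.07 and -1.09, and the libraries numbered 2 at 0.479 and 0.23. Whether libraries with the same number share a batch was not tested. The replicate block in place of the factor gave 2741 called genes, 1143 of them higher in the SV and 1598 lower, and 2 for the difference from WT. Beside the factor it gave 3156 and 9.

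Without the factor *vtg5*, *hcn4*, *egr2a*, *egr3*, *junbb* and *mfap4* were not called in the mutant contrast. Among the list counts not given above, without SV library 2 the count of glycolysis genes called lower was 18, and without SV library 1 that of hepatocyte genes called higher was 21. Depth limits the genes near the floor, for which only bounds or intervals are given.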

Other observations

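Immediate early genes, which cells switch on within minutes of a stimulus such as dissection, stood high in 1 SV library. Of 28 tested, 5 were called higher in the SV, none was called lower and 23 were not called, with a median of 0.91. This called share was near the 21.0% called in either direction over all genes. The list summed to 6981 and 22245 CPM in the SV libraries and 6734 and 10002 CPM in the V libraries, so SV library 2 stood alone. *egr2a* was measured at 7.24 and 43.1 CPM in the SV libraries and 0.891 and 2.74 CPM in the V libraries, with a log2 fold change of 3.86 (edgeR BH-adjusted p = 0.00495), and *junbb* and *egr3* had log2 fold changes of 1.99 (edgeR BH-adjusted p = 0.0097) and 2.98 (edgeR BH-adjusted p = 0.0114). Without SV library 2 the count was 1 and the median 0.04, and without V library 1 or without the RUVs factor the count was also 1.

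Cell cycle genes gave no call. Of 32 tested, edgeR and DESeq2 each called 0 and edgeR gave 0 an unadjusted p below 0.05, with a median of 0.06. *top2a*, *mki67* and *ccnd1* had log2 fold changes of 0.68, -0.70 and -0.59, and for *mki67* the libraries of each tissue differed more than the tissues, at 18 and 6.04 CPM in the SV libraries and 27.7 and 6.33 CPM in the V libraries.

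In FPKM, a scale on which genes can be set beside each other, the haemoglobin gene *ba1* stood at 38023 and 43908 FPKM in the SV libraries and 10455 and 6085 FPKM in the V libraries, and the mitochondrially encoded *COX1* at 7167 and 8191 FPKM in the SV libraries and 36473 and 40546 FPKM in the V libraries. Among the 10 most abundant genes haemoglobin genes led both SV libraries, *COX1* led V library 1 and *cmlc1* led V library 2. The cardiac light chain gene *cmlc1* stood at 1075 and 185 FPKM in the SV libraries and 13449 and 48059 FPKM in the V libraries.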
